A study of Mus musculus with 15 samples.

Results

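The IL-33 receptor and amphiregulin axis was followed through 6 genes of mouse regulatory T cells (Tregs), of 24015 genes in the count table. Il1rl1, Il1rap and Myd88 encode the receptor, co-receptor and adaptor of IL-33 signalling, and Areg, Hbegf and Ereg encode ligands of the epidermal growth factor (EGF) family. The genes were chosen by name for these roles, with earlier results of these data known, and read in all 15 libraries. Of the 6, 5 had enough counts to be tested, and Ereg did not pass the filter on low counts. The libraries form 5 groups of 3. All mice were adult C57BL/6 and all carried Foxp3 cre-eyfp, in which Cre and a yellow fluorescent protein are made in cells that express Foxp3. WT mice had the genotype Foxp3 cre-eyfp, and cKO mice had Foxp3 cre-eyfp Rora fl/fl, so that the controls lacked the floxed Rora allele but not the Cre. CD45+CD3+CD4+YFP+ cells were sorted from untreated WT skin, untreated cKO skin, MC903-treated WT skin, MC903-treated cKO skin and untreated WT skin-draining lymph nodes (LN). Untreated skin was dorsal skin together with ears. MC903, a vitamin D analogue that produces a dermatitis resembling atopic disease, was applied in ethanol to the ears in 4 applications on alternate days, and these cells came from ears alone, so that site and treatment cannot be told apart. Skin was digested for 90 minutes with Liberase TL and DNAse, whereas the LN protocol names homogenization and no enzyme, so that tissue and digestion cannot be told apart either. The titles call the libraries biological replicates, but the number of mice behind each is not given. The p-values therefore set differences against the spread between these libraries, which may be partly technical.

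IL-33 is an alarmin released by damaged barrier and stromal cells. It binds the chain encoded by Il1rl1, also called ST2, which pairs with the shared co-receptor encoded by Il1rap and signals through the adaptor Myd88 to kinases that activate NF-kappa-B and MAP kinases. Tregs resident in skin, muscle, lung and fat are known for ST2 and for amphiregulin, an EGF receptor ligand tied to tissue repair. Amphiregulin, heparin-binding EGF-like growth factor (Hbegf) and epiregulin (Ereg) are made as membrane precursors and released by metalloproteases, chiefly ADAM17.

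The promoters of Il1rl1 and Areg are shown because these genes had the widest differences between skin and LN. The 250 bases before each start come from RefSeq on build GRCm38.p6 and run 5′ to 3′ on the plus strand, with capitals for a GATA element in Il1rl1 and for a cAMP response element in Areg. Il1rl1 has a pair of annotated starts, with windows at chr1:40429320-40429569 and chr1:40439379-40439628, and Areg has 1, with its window at chr5:91139349-91139598.
Il1rl1 start 1: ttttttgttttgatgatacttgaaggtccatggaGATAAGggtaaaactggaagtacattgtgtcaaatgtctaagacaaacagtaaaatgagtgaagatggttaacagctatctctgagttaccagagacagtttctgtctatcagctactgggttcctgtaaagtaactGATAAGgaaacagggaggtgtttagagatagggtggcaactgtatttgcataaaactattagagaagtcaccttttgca
Il1rl1 start 2: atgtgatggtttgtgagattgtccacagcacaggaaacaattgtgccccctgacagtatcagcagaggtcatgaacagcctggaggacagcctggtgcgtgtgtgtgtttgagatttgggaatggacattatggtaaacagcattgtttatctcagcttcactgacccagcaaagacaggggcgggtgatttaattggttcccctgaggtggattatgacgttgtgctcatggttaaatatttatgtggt
Areg: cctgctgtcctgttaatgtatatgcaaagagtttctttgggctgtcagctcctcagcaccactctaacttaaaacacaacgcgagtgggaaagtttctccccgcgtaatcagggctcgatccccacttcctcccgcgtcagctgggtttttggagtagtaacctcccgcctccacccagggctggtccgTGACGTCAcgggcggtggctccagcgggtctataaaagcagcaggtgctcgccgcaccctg

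Both strands of these windows and of those of Myd88 and Il1rap were searched for TGACGTCA (cAMP response element), TGANTCA (AP-1 element), TAGGTCA (ROR element), the NF-kappa-B element and, for factors of the GATA family, the element GATAAG. These motifs do not contain one another. The Areg window held TGACGTCA with its first base 61 bases upstream of the start, a motif held by 1.55% of 32851 promoter windows of that length. The window of the first Il1rl1 start held GATAAG at 216 and 79 bases upstream, and 6.55% of all windows hold this motif. No other match was found in the windows of Il1rl1, Areg, Myd88 and Il1rap. Across all windows the AP-1 element was held by 6.75%, the NF-kappa-B element by 0.98% and the ROR element by 2.23%. The windows are a description of sequence and no binding was measured.

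Il1rl1 lies on chromosome 1 in the mouse GENCODE annotation, with 4 transcripts and 2 distinct coding sequences. The locus is known to make a membrane receptor and a soluble decoy form from its separate starts, and a count per gene does not separate them. Il1rap lies on chromosome 16 and has 4 transcripts. Its exons overlap Gm20319 on the opposite strand. Myd88 lies on chromosome 9, Hbegf on chromosome 18, and Areg and Ereg on chromosome 5. In gene order Areg stands between Ereg and Btc, with Epgn beyond Ereg, and all 4 of these genes encode EGF-family ligands. Exons of Ereg overlap Gm19610 on the opposite strand. Whether counting used the strand is not given in the sources used here, so that reads of Il1rap and Ereg and of these partners may be mixed.

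Library totals ran from 19.8 to 27.7 M counts, M being the mega prefix. Levels are counts per M (CPM) of the scaled library, which compare libraries for 1 gene, and levels are set between genes only as CPM per kb of exon. In bulk libraries, fewer cells that express a gene and less RNA per cell cannot be told apart. The Treg label was checked on 9 Treg and T cell markers, none of which was at 0 in any group. Their summed level was 4946 to 5966 CPM in LN and 8658 to 11320 CPM in the 12 skin libraries. The list moved both ways, with 5 of the 9 called higher and 3 lower in untreated WT skin than in LN. Of all genes, 57.6% were called in that comparison. Ctla4 averaged 302 CPM in LN and 3473 CPM in untreated WT skin, whereas Cd3e averaged 1541 and 896 CPM. Foxp3 itself was 16.2 to 41.8 CPM in LN and 110 to 202 CPM in skin. Rora was lower in all cKO libraries than in all WT libraries of the same treatment, and its log2 change averaged over treatments was -0.50 ± 0.10 (SE, n = 6 libraries per genotype, adjusted p = 0.0193, edgeR). Within a treatment it did not pass, at -0.43 ± 0.15 in untreated skin (adjusted p = 0.25) and -0.57 ± 0.15 after MC903 (adjusted p = 0.191). Reads over the deleted part were not counted apart.

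Skin Tregs held far more Il1rl1 and Areg transcript than LN Tregs, and also more Hbegf and Myd88, while the co-receptor transcript Il1rap was not called in any comparison. Of the 5 tested members, 4 were called higher in untreated WT skin than in WT LN, at an adjusted p under 0.05 in edgeR's quasi-likelihood test. In that comparison 57.6% of 13578 genes were called, 3911 higher and 3913 lower, so that a call alone is common. The median log2 change was 3.11 over the 5 members and 0.01 over all tested genes. Against the same LN libraries, 4 members were also called higher in WT MC903 skin, where 51.1% of genes were called and the members' median was 3.19 against 0.02 for all genes. These comparisons share the LN libraries.

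**Figure D1:**
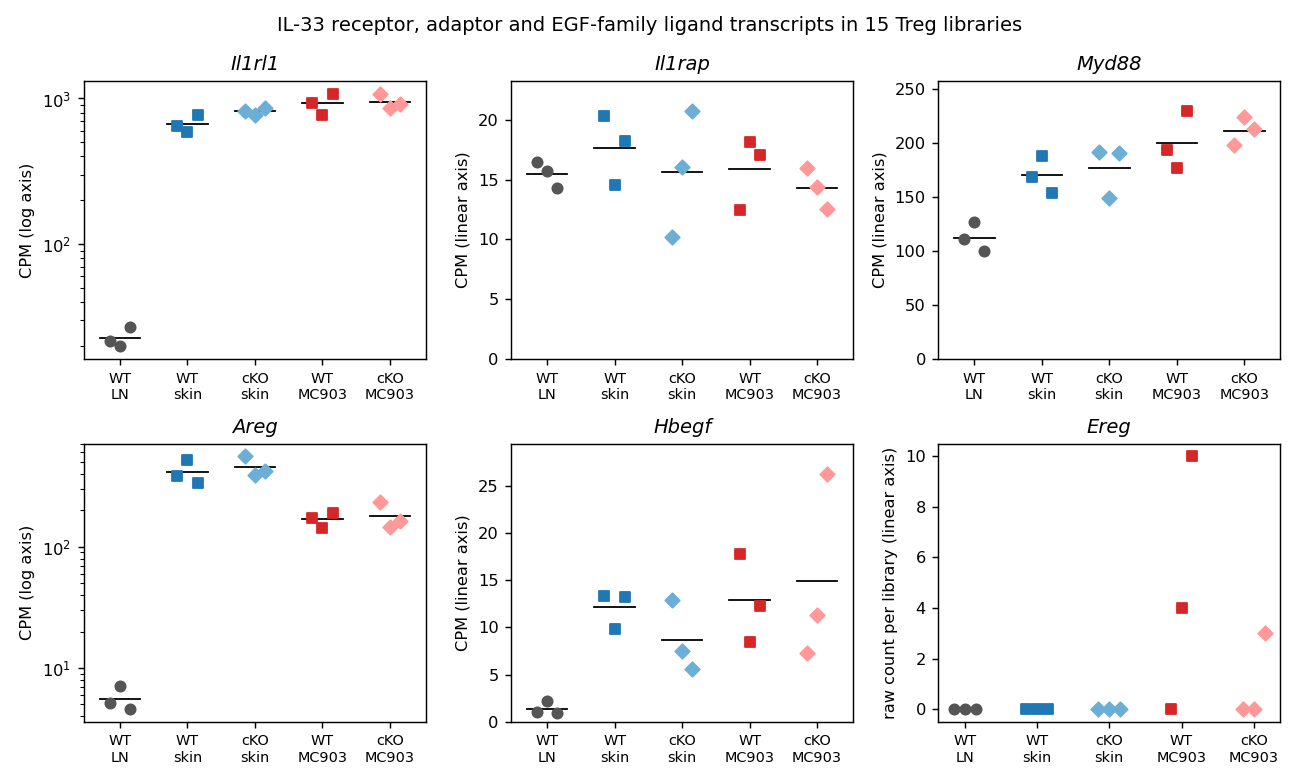
Each point is 1 library and each bar a group mean (n = 3). Il1rl1 and Areg are in CPM on log axes, Il1rap, Myd88 and Hbegf in CPM on linear axes from 0, and Ereg in raw counts. The 12 skin libraries lie between 593 and 1079 CPM for Il1rl1 and between 143 and 557 CPM for Areg, all above LN, whereas Il1rap overlaps between groups.

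The IL-33 receptor transcript Il1rl1 stood at 21.7, 19.8 and 26.8 CPM in LN replicates 1 to 3. It stood at 649, 593 and 768 CPM in untreated WT skin, and at 924, 769 and 1079 CPM in WT MC903 skin. Every skin library was above every LN library. The log2 change from LN was 4.88 ± 0.18 (SE) in untreated skin, a 29.4-fold difference (edgeR adjusted p = 7.56e-12). After MC903 the change was 5.34 ± 0.18, a 40.6-fold difference (adjusted p = 5.57e-12). In the authors' deposited table, which gives LN against untreated skin, the log2 change was -4.86 for Il1rl1, -6.09 for Areg, -2.83 for Hbegf, -0.63 for Myd88 and -0.22 for Il1rap.

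In cKO skin, Il1rl1 was 820, 767 and 863 CPM without treatment and 1067, 862 and 918 CPM with MC903. The untreated cKO libraries overlapped the WT range only through the lowest cKO and the highest WT library, at 767 and 768 CPM. The genotype difference did not pass in untreated skin, with a log2 change of 0.29 ± 0.15 (edgeR adjusted p = 0.49), nor after MC903, at 0.04 ± 0.15 (adjusted p = 1). Group means ran from 949 ± 106 CPM (SD, n = 3) in cKO MC903 skin through 924 ± 155 in WT MC903 skin and 816 ± 48.1 in untreated cKO skin to 670 ± 89.6 in untreated WT skin, and neighbours in that order overlapped. LN, at 22.8 ± 3.61 CPM, did not overlap any skin group.

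All 3 WT MC903 libraries were above all 3 untreated WT libraries for Il1rl1, the closest being 769 and 768 CPM. The log2 difference was 0.46 ± 0.15 and narrowly missed the threshold (edgeR adjusted p = 0.057). It was 0.22 ± 0.15 in cKO (adjusted p = 0.374). The WT value passed in DESeq2 (adjusted p = 0.0264), without WT untreated replicate 3 (0.0376) and without WT MC903 replicate 2 (0.0331). It did not pass in limma-voom (0.0594), with only the compared groups in the fit (0.132) or with the 3 libraries of highest fibroblast and endothelial sums left out (0.255). Averaged over both genotypes, an alternative added after seeing the data in which 25.1% of genes were called, Il1rl1 was higher by 0.34 ± 0.10 (adjusted p = 0.0262). Leaving out any 1 of 6 of the 12 skin libraries ended that call (adjusted p = 0.0516 to 0.0742), namely untreated WT replicates 1 and 2, untreated cKO replicate 2, WT MC903 replicates 1 and 3 and cKO MC903 replicate 1.

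The co-receptor transcript Il1rap was 16.5, 15.7 and 14.3 CPM in LN and 20.3, 14.5 and 18.2 CPM in untreated WT skin. It was 10.2, 16.0 and 20.7 CPM in untreated cKO skin. With MC903 the WT libraries stood at 12.5, 18.2 and 17.1 CPM, and the cKO libraries at 16.0, 14.4 and 12.5 CPM. Each group overlapped the next in the order of means, which ran from 14.3 to 17.7 CPM. The log2 change from LN to untreated WT skin was 0.19 ± 0.24 (edgeR adjusted p = 0.526), and no comparison passed. Per kb of exon, Il1rl1 was 1.85 times Il1rap in LN, 47.7 times in untreated WT skin and 83.6 times in cKO MC903 skin, on group means.

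Myd88, the adaptor, was 111, 127 and 99.98 CPM in LN. It was 169, 188 and 154 CPM in untreated WT skin and 194, 178 and 230 CPM in WT MC903 skin. Skin and LN libraries did not overlap. The log2 change from LN was 0.60 ± 0.14 in untreated skin (1.51-fold, edgeR adjusted p = 0.00169) and 0.83 ± 0.14 after MC903 (1.78-fold, adjusted p = 0.000133).

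In cKO skin Myd88 was 192, 150 and 191 CPM untreated and 199, 224 and 213 CPM with MC903, which do not overlap. Neither genotype's MC903 difference passed, at 0.24 ± 0.14 in WT (edgeR adjusted p = 0.305) and 0.26 ± 0.14 in cKO (adjusted p = 0.247). Skin group means lay between 170 and 212 CPM and each overlapped its neighbour.

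Areg, which encodes amphiregulin, was 5.18, 7.04 and 4.58 CPM in LN. It was 384, 518 and 334 CPM in untreated WT skin and 557, 391 and 425 CPM in untreated cKO skin. With MC903 the WT libraries stood at 173, 143 and 189 CPM, and the cKO libraries at 233, 144 and 165 CPM. The libraries therefore fell into 3 levels that did not overlap, with untreated skin highest, MC903 skin between and LN lowest, and the genotypes overlapped within each skin level.

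Areg was higher than in LN by 6.20 ± 0.27 on the log2 scale in untreated WT skin, a 73.5-fold difference (edgeR adjusted p = 3.84e-11). In WT MC903 skin the difference was 4.91 ± 0.25, or 29.96-fold (adjusted p = 4.39e-10). Areg was the 1 member called between MC903 and untreated skin, and it was lower after MC903 in both genotypes. In WT it fell by 1.29 on the log2 scale (SE 0.21, 2.45-fold, adjusted p = 0.00148), in a comparison where 10.5% of genes were called. In cKO it fell by 1.34 (SE 0.21, 2.53-fold, adjusted p = 0.00137), where 11.3% of genes were called. Each MC903 call held under all 15 alternatives, with log2 values from -1.42 to -1.09 in WT and from -1.57 to -1.11 in cKO.

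**Figure D2:**
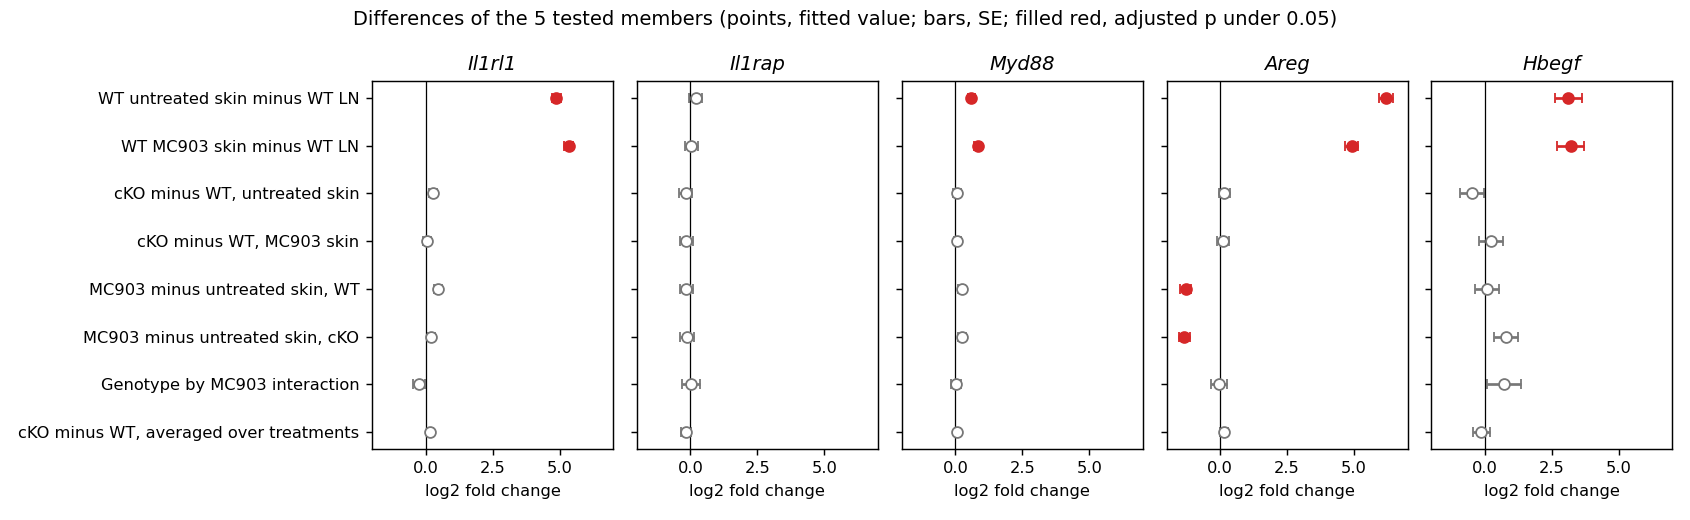
Log2 fold changes of the 5 tested members (points, with SE bars) in the 8 comparisons, filled red where the adjusted p was under 0.05. Il1rl1, Myd88, Areg and Hbegf are filled in both comparisons with LN, Areg alone is filled in the MC903 comparisons, at -1.29 and -1.34, and no genotype comparison is filled.

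The summed level of 20 immediate early and heat shock genes, listed as markers of a response to tissue digestion, moved with Areg across LN, MC903 skin and untreated skin. This sum was 2348 to 2665 CPM in LN, 18680 to 27250 CPM in untreated WT skin and 19560 to 24670 CPM in untreated cKO skin. It was 10070 to 10890 CPM in WT MC903 skin and 9258 to 11250 CPM in cKO MC903 skin. The sums thus had the same 3 levels as Areg. Among untreated WT libraries the sums also followed the order of Areg. Among untreated cKO libraries they did not, as replicate 1 had the most Areg, 557 CPM, and the lowest sum, 19560 CPM. Junb alone averaged 7040 CPM of a mean sum of 24110 CPM in untreated WT skin. From LN to untreated WT skin 19 of the 20 rose and 1 fell, with a median log2 change of 3.46, and 57.6% of all genes were called. With MC903, 14 of the 20 fell in each genotype and none rose, with medians of -1.08 in WT and -1.09 in cKO. Of all genes, 10.5% were called with MC903 in WT and 11.3% in cKO. From LN to WT MC903 skin 16 rose, 1 fell and 3 did not pass, and 51.1% of all genes were called. Fos, an AP-1 subunit of this list, averaged 9.74 CPM in LN, 1614 in untreated WT skin and 462 in WT MC903 skin. Not every gene had these 3 levels. Jun, Egr1 and Egr2 averaged 41.5, 125 and 78.0 CPM in LN and 32.4, 94.6 and 14.1 CPM in WT MC903 skin. Ier3 averaged 66.7 CPM in untreated WT skin and 77.6 CPM in WT MC903 skin. The part of digestion in the Areg differences was not tested.

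**Figure D3:**
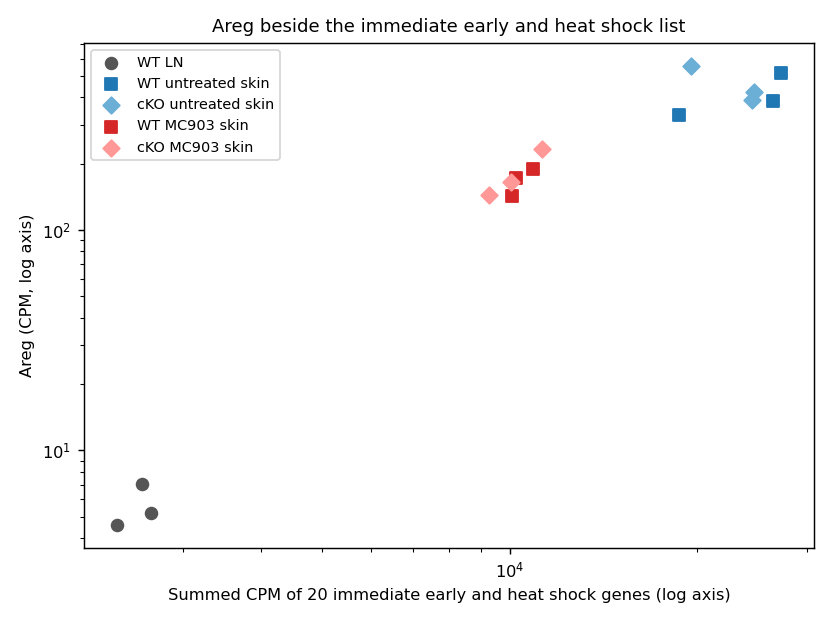
Areg against the summed level of 20 immediate early and heat shock genes in each of the 15 libraries, in CPM on log axes. LN libraries lie at sums up to 2665, MC903 skin at 9258 to 11250 and untreated skin from 18680, and the same 3 sets are apart on the Areg axis.

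The balance of the ligand and receptor transcripts separated untreated from MC903 skin. The log2 ratio of Areg to Il1rl1 CPM was not scaled by exon length, so that it compares libraries and not the 2 genes. In single libraries this ratio was -1.20 to -0.19 in untreated skin and -2.58 to -2.20 in MC903 skin, over both genotypes and without overlap. In LN, where both transcripts were low, it was -2.55 to -1.49. Per kb of exon and on group means, Areg was 3.46 times Il1rl1 in untreated WT skin, 1.02 times in WT MC903 skin and 1.38 times in LN.

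**Figure D4:**
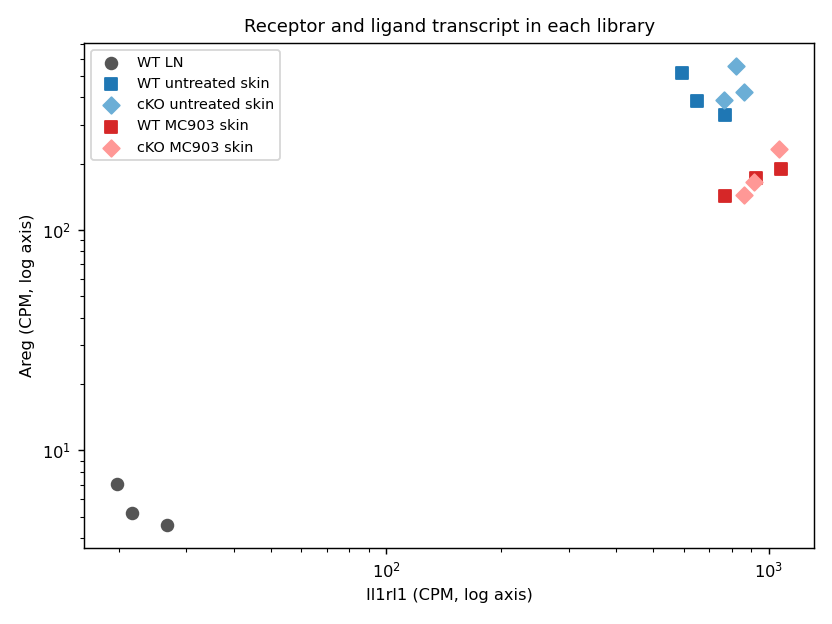
Areg against Il1rl1 in each of the 15 libraries, in CPM on log axes. LN libraries lie at the lower left, and the MC903 libraries lie below the untreated skin libraries, at up to 233 against at least 334 CPM of Areg, over Il1rl1 ranges that overlap when the genotypes are pooled.

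Hbegf, the heparin-binding ligand, was 1.07, 2.19 and 0.941 CPM in LN and 13.3, 9.86 and 13.2 CPM in untreated WT skin. In WT MC903 skin it was 17.8, 8.51 and 12.2 CPM. All skin libraries were above LN. The log2 change from LN was 3.11 ± 0.50 in untreated skin (8.63-fold, edgeR adjusted p = 7.46e-05) and 3.19 ± 0.50 after MC903 (9.15-fold, adjusted p = 7.96e-05).

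Hbegf was spread widely in cKO skin. It was 12.9, 7.50 and 5.55 CPM in untreated cKO skin and 7.26, 11.3 and 26.3 CPM in cKO MC903 skin. The library at 26.3 CPM also had the highest sum of 14 fibroblast and endothelial markers, 603 CPM, and the part of such cells in its Hbegf level was not tested. All skin groups overlapped, and neither the MC903 differences (0.08 ± 0.45 in WT, edgeR adjusted p = 0.938, and 0.79 ± 0.46 in cKO, adjusted p = 0.286) nor the genotype differences passed. With single libraries left out, the cKO value ran from 0.10 to 1.20, and the lowest was without the library at 26.3 CPM. Per kb of exon, Areg was 66.4 times Hbegf in untreated WT skin, 25.6 times in WT MC903 skin and 7.83 times in LN.

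Ereg, which encodes epiregulin, had a count of 0 in 12 of the 15 libraries. It had counts of 4 and 10 in WT MC903 replicates 2 and 3 and of 3 in cKO MC903 replicate 3. A count of 0 allows up to 3 counts, or 0.0941 to 0.162 CPM depending on the library, as far as counting error goes. The few counts came from MC903 skin, and with no filter on low counts the difference between WT MC903 skin and LN did not pass (edgeR adjusted p = 0.107). WT MC903 replicate 3 and cKO MC903 replicate 3 also had the highest fibroblast and endothelial marker sums of all libraries, 441 and 603 CPM. WT MC903 replicate 2 was at 181 CPM, and the part of such cells in the Ereg counts was not tested.

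No member differed between genotypes at the threshold. In untreated skin 0 of 5 members were called and 0.803% of all genes were. In MC903 skin 0 were called against 0.258% of all genes, and averaged over treatments 0 against 1.75%. At an unadjusted p under 0.05 these counts were also 0 in edgeR, where 1560, 917 and 1607 of all 13578 genes were under it in untreated skin, in MC903 skin and averaged over treatments, so that 0 of 5 says little about the members. DESeq2 and limma-voom called 0 members, adjusted or not. The Areg difference between cKO and WT was 0.15 ± 0.21 in untreated skin (edgeR adjusted p = 0.846) and 0.10 ± 0.21 after MC903 (adjusted p = 1).

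The averaged genotype differences were 0.16 ± 0.10 for Il1rl1, -0.16 ± 0.17 for Il1rap, 0.07 ± 0.10 for Myd88, 0.13 ± 0.15 for Areg and -0.13 ± 0.32 for Hbegf, all on the log2 scale. Their SEs leave room for modest differences, most of all in Hbegf. The test of whether the MC903 difference itself depended on genotype called 0 members and 0% of all genes in edgeR. At an unadjusted p under 0.05 it had 0 members and 765 genes, and after adjustment DESeq2 called 17 genes and limma-voom 0. For Areg this interaction was -0.05 ± 0.30 (adjusted p = 0.993), and for Il1rl1 it was -0.25 ± 0.21 (adjusted p = 0.921).

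Downstream of the receptor, a list of 23 kinases, adaptors and NF-kappa-B genes moved both ways. Of all genes, 57.6% were called between untreated WT skin and LN and 51.1% between WT MC903 skin and LN. With MC903, 10.5% were called in WT and 11.3% in cKO, and between genotypes 1.75% averaged over treatments. These shares are the background for the lists that follow too. From LN to untreated WT skin 13 rose, 6 fell and 4 did not pass, with a median log2 change of 0.65 against 0.01 for all genes. The rises with the smallest adjusted p were in regulators of NF-kappa-B. Nfkbiz and Nfkbia, both of the I-kappa-B family, rose by 3.30 ± 0.16 and 2.50 ± 0.13, and Tnfaip3, which encodes a ubiquitin-editing inhibitor, by 4.41 ± 0.23. Ikbkg, the regulatory subunit of the IKK complex, fell by 2.54 (SE 0.16), and Sigirr, an inhibitory member of the IL-1 receptor family, fell by 1.68 (SE 0.16). With MC903, 2 rose and 3 fell in WT (median -0.20), and 3 rose and 5 fell in cKO (median -0.29). In both genotypes the kinase Irak4 rose, by 1.25 ± 0.22 in WT and 1.08 ± 0.22 in cKO, and Tnfaip3 fell, by 1.01 (SE 0.21) and 0.88 (SE 0.20). Between genotypes none passed within a treatment, and averaged over treatments 1 rose, the ubiquitin ligase Peli1, by 0.43 ± 0.10 (edgeR adjusted p = 0.0447).

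Of 7 other receptors of the IL-1 family, 5 were tested. In untreated WT skin 3 were higher than in LN and 1 was lower, with a median log2 change of 1.18. Il18rap, the IL-18 receptor accessory chain, rose by 2.63 ± 0.20, Il18r1, its partner, by 0.91 ± 0.18, and Il1r2, a decoy receptor for IL-1, by 1.18 ± 0.20. The one called lower, Il1rl2, had 62 counts in LN and 1 in untreated WT skin. Il1r2 was the 1 of the 5 called with MC903, higher by 1.02 ± 0.20 in WT (edgeR adjusted p = 0.00481) and by 0.79 ± 0.20 in cKO (adjusted p = 0.0181). Its mean was 210 CPM in untreated WT skin and 425 CPM in WT MC903 skin. Of 15 ligand and antagonist names of the family, 6 were tested and 2 were called between untreated WT skin and LN, none with MC903. Il1b was higher in skin by 5.34 ± 1.51, at 1.94 to 22.1 CPM against at most 0.659 CPM, and Il18bp, which encodes a soluble binder of IL-18, fell by 1.59 (SE 0.46). Il33 itself was scarce, with 6 counts over the LN libraries and at most 127 over a skin group.

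Other EGF-family ligands were near the detection limit. Of 8, 5 were tested, and 1 was higher and 2 were lower in untreated WT skin than in LN. Tgfa had 0 counts in LN and 40 in untreated WT skin, which is at least 19.6-fold higher against a floor of 3 counts over the LN group. Btc had 135 counts in LN and 4 in untreated WT skin, and Egf 75 and 1. The list's median log2 change was -0.86, and the same with Tgfa and Epgn, both at 0 counts in LN, set to their bounds. None of the 5 was called with MC903. Of the EGF receptors, 3 of 4 were tested and Erbb2 was called higher than in LN, at a mean of 1.44 CPM against 0.172, while Egfr itself averaged 1.04 CPM in untreated WT skin and 0.300 CPM in LN.

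Of 9 genes for the release of EGF-family ligands and its control, 5 rose and 2 fell from LN to untreated WT skin. The median log2 change was 2.07, also with Timp3, at 0 counts in LN, set to its bound. Timp3 encodes an inhibitor of metalloproteases, so that a rise in this list need not favour release. Its level ran from 1.02 to 11.1 CPM within untreated WT skin. The metalloprotease genes Adam8 and Adam9 rose by 4.32 ± 0.18 and 3.17 ± 0.27, and Rhbdf2, whose product iRhom2 carries ADAM17 to the surface, by 2.07 ± 0.18. Frmd8, which encodes a partner of the iRhoms, fell by 2.05 (SE 0.24), and Adam10 fell by 0.69 (SE 0.16). Adam17 averaged 74.7 CPM in LN and 81.2 CPM in untreated WT skin and was not called. With MC903 1 rose and 2 fell in WT (median 0.44), and 1 rose and 3 fell in cKO (median -0.07). Adam8 fell in both genotypes, by 0.95 (SE 0.16) in WT and 1.29 (SE 0.16) in cKO, as did Rhbdf2, by 0.62 (SE 0.17) and 0.61 (SE 0.17). Frmd8 rose, by 0.82 ± 0.23 and 1.03 ± 0.23. Adam12 had 40 counts in untreated cKO skin and 1 in cKO MC903 skin.

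Of 12 factors known from ST2-positive tissue Tregs, 11 were higher in untreated WT skin than in LN, with a median log2 change of 2.30. The smallest adjusted p belonged to the cytokine gene Il10, which rose by 7.63 ± 0.21, followed by Rora at 4.55 ± 0.17 and the surface receptor gene Klrg1 at 3.57 ± 0.23. Bach2, a repressor of effector programmes, fell by 3.06 (SE 0.47). With MC903, 1 rose and 2 fell in WT (median -0.27), and 4 fell in cKO (median -0.18). Il10 fell in both, by 1.45 (SE 0.16) in WT and 0.81 (SE 0.15) in cKO, and so did Rora, by 0.82 and 0.95 (SE 0.15 in each). Gata3, a transcription factor known to bind the Il1rl1 locus in type 2 lymphocytes, was higher in cKO than in WT untreated skin by 0.59 ± 0.13 (edgeR adjusted p = 0.0448), at 1081 against 718 CPM. Averaged over treatments Gata3 was higher in cKO by 0.48 ± 0.09 (adjusted p = 0.0106). Set against the same LN libraries, where 51.1% of all genes were called, WT MC903 skin had 11 higher and 1 lower in this list. Counts were 9 and 6 in the 23 signalling genes and 4 and 0 in the IL-1 family receptors. In the genes of ligand release and its control they were 5 and 1. In the IL-1 family ligands they were 1 and 1, and in the EGF-family ligands and the EGF receptors 1 and 0 each.

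The genes with profiles most like each member were ranked by the root mean square difference of centred log2 CPM over the 15 libraries, among 7902 candidates. For Areg these were Gem at 0.28, Gadd45b at 0.39 and Fos at 0.48, where the median candidate was at 2.36. For Il1rl1 they were Zdhhc23 at 0.30, Pqlc1 at 0.33 and Dgat1 at 0.36, against a median of 2.12. Hbegf was nearest to Hmox1, Tinf2 and Ctla4, at 0.50 to 0.54. Il1rap was nearest to Scaf8, Rabep2 and Cebpz, at 0.17 each, and Myd88 to Ube2n, Sin3b and Wbp4, at 0.13 to 0.14. The measure follows mainly the gap between skin and LN.

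Other cells that make these transcripts were followed through their markers. The 11 mast cell and basophil markers summed to 0.879 to 1.42 CPM in LN, 7.66 to 24.4 CPM in untreated skin and 27.3 to 71.6 CPM in MC903 skin, with Mrgprb2 at 0 in every group and Hdc the main contributor in untreated skin. The 8 markers of group 2 innate lymphoid cells summed to 21.8 to 30.1 CPM in LN, 129 to 164 CPM in untreated WT skin and 238 to 246 CPM in untreated cKO skin. They summed to 55.4 to 74.8 CPM in MC903 skin, where Ptgdr2 was at 0, and Calca made up most of the sum in untreated skin. Il5 was at 0 in LN.

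The 16 keratinocyte markers summed to 32.9 to 34.4 CPM in LN and 178 to 843 CPM in skin. The 14 fibroblast and endothelial markers summed to 120 to 157 CPM in LN and 54.4 to 603 CPM in skin. In LN, Pecam1 alone averaged 132 CPM of a mean sum of 137 CPM, and in untreated WT skin it averaged 25.8 CPM. Dcn and Sparc went the other way, from 0.106 and 0.178 CPM to 25.8 and 44.8 CPM. Of 13 tested markers, 8 were called higher and 1 lower in untreated WT skin than in LN. The 3 libraries with the highest fibroblast and endothelial sums were cKO MC903 replicate 3, WT MC903 replicate 3 and untreated cKO replicate 1. Without them, an alternative added after seeing the data, 4 members were called in each comparison with LN. That says little about such cells, since untreated WT skin and LN lost no library and WT MC903 skin lost replicate 3 alone. Areg was then called lower with MC903 in each genotype, by 1.38 in WT (edgeR adjusted p = 0.00757) and 1.11 in cKO (adjusted p = 0.0193). The 18 macrophage and dendritic cell markers in the table summed to 799 to 2604 CPM in LN and 502 to 1878 CPM in skin. Cd74 averaged 990 CPM of a mean sum of 1447 CPM in LN, and 770 CPM in untreated WT skin. Mrc1 went the other way, at 0.0866 CPM in LN and 2.79 CPM in untreated WT skin. Of the 16 tested, 4 were called higher and 1 lower in untreated WT skin than in LN. The 9 B cell markers summed to 192 to 719 CPM in LN and 7.85 to 21.4 CPM in skin. The 7 CD8, gamma-delta T and NK cell markers summed to 39.1 to 58.8 CPM in LN and 10.2 to 28.2 CPM in skin. The part of other cells in the members' levels was not tested.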

How the data were processed

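Tregs were sorted and sequenced with a SMART-Seq v4 kit as 75 bp single-end reads, per the labels' protocols. Alignment was with TopHat2 2.0.6 to mm9 and comparison with DESeq2, per the submitters' processing notes. The read counter, its annotation and its strand setting are not given in the sources used here. The authors deposited raw counts per gene and a table of LN against skin that holds, per the file headers, the signal of each gene averaged after normalisation, the log2 fold change, its error, their quotient as a score, the p-value and its adjusted form. Libraries were grouped by their titles.

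From the deposited counts, edgeR 4.0.16 (R 4.3.3) fitted 1 model to all 15 libraries with TMM factors of 0.903 to 1.26. Its filterByExpr kept 13578 of 24015 genes. Contrasts had quasi-likelihood F tests with robust fitting, two-sided, adjusted by Benjamini-Hochberg over all tested genes, with calls at adjusted p below 0.05. A common dispersion of 0.138 was estimated. An SE is the log2 change over the square root of F. With no molecular identifiers, reads are not independent molecules, and count floors cover counting error alone. Alternatives were DESeq2 1.42.0, limma-voom (limma 3.58.1), other scaling and filters, fewer groups, a replicate block and each library left out. The pipeline was also run on simulated counts, for the genotype contrast in untreated skin alone, with changes planted in genes of higher counts. That run does not bear on genes of low counts or on the other contrasts. Exon lengths are from GENCODE M21 on GRCm38, since coordinates of mm9 were not used.

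The members, gene lists and markers were chosen with earlier results of these data known. The text names the 6 members, up to 3 called genes per list and direction with the smallest adjusted p, and the 3 genes most like each tested member with a mean log2 CPM of 3 or more. Genes named outside this rule, such as Il33, Egfr, Adam17, Epgn and Timp3, were chosen after their values were seen. So were single genes of the marker lists, namely Foxp3, Ctla4, Cd3e, Fos, Jun, Junb, Egr1, Egr2, Ier3, Hdc, Mrgprb2, Calca, Ptgdr2, Il5, Pecam1, Dcn, Sparc, Cd74 and Mrc1.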

Additional observations from a re-analysis of the deposited data

How the results depend on the processing

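The count of members called was the same under 120 of 126 alternatives. The other 6 raised it from 1 to 2 in the MC903 comparisons, Il1rl1 joining Areg: DESeq2, the replicate block and the average over both genotypes in WT, and that average in cKO, gave 2 each, and leaving out single libraries gave 1 to 2 in WT. Whether a replicate number marks shared mice or a shared day is not given. Deviations of same-numbered libraries correlated from -0.28 to 0.22 over 30 pairs, with 3 above 0.1. Those of differently numbered libraries correlated from -0.15 to 0.22 over 60 pairs, with 8 above 0.1. These correlations cannot settle whether libraries were paired. With the replicate block the WT Il1rl1 change with MC903 was 0.46 (adjusted p = 0.0258), and no other count of members changed. The block called 1232 genes there, against 1421 without it and 2048 in DESeq2. Other counts of all genes differed between tools: DESeq2 called 323 and 140 genes between genotypes in untreated and MC903 skin, where edgeR called 109 and 35 and limma-voom 95 and 95, and averaged over treatments DESeq2 called 462 and edgeR 237. Limma-voom called 2668 genes with MC903 in cKO, where edgeR called 1529.

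No called member changed direction. Differences that had not passed did, and the cause was not tested. In limma-voom, Il1rap in WT MC903 skin against LN was -0.061 and the Myd88 interaction -0.010. With the 3 libraries of highest fibroblast and endothelial sums left out, Il1rap was -0.020 in WT MC903 skin against LN, 0.060 between genotypes in untreated skin, -0.072 in the interaction and 0.024 for the averaged genotype. Areg was then -0.014 between genotypes in untreated skin and 0.27 in the interaction, and Hbegf -0.51 between genotypes in MC903 skin. With single libraries left out, log2 changes between genotypes in untreated skin ran from -0.43 to 0.060 for Il1rap, -0.0062 to 0.17 for Myd88 and -0.014 to 0.35 for Areg. In MC903 skin they ran from -0.078 to 0.16 for Il1rl1, -0.00078 to 0.19 for Myd88, -0.12 to 0.24 for Areg and -0.47 to 0.55 for Hbegf. With MC903 they ran from -0.28 to 0.0056 for Il1rap and -0.22 to 0.31 for Hbegf in WT, and -0.36 to 0.13 for Il1rap in cKO. Interactions ran from -0.21 to 0.28 for Il1rap, -0.091 to 0.13 for Myd88 and -0.27 to 0.12 for Areg. The averaged genotype change of Hbegf ran from -0.48 to 0.031, and Il1rap in WT MC903 skin against LN from -0.073 to 0.22. Depth limits Ereg, Tgfa, Btc and Egf.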
